A study of Mus musculus with 8 samples.

Results

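The axonemal dynein and cilium genes described here are the members of 10 name families of the deposited count table: dynein axonemal heavy chains (Dnah), dynein assembly factors (Dnaaf), intermediate chains (Dnai), a light intermediate chain (Dnali), cilia and flagella associated proteins (Cfap), radial spoke proteins (Rsph), tektins (Tekt), sperm associated antigens (Spag), intraflagellar transport proteins (Ift) and Wdr90. Symbols were matched to these prefixes and kept with a total of 10 or more counts over the 8 libraries. Of 24421 genes in the table, 74 matched and 72 were kept, and 63 of these passed the low-count filter and were tested among 15917 genes. Rsph14 and Spag11a, with totals of 7 and 2, fell outside the minimum, and Cfap58, Cfap61 and Tekt1, with totals of 18, 18 and 20, lay nearest to it on the inside. The families were picked because several members were higher in Dnmt3a+/- cells, so every difference between genotypes below is a description and carries no test. Differences by Vwf status and by sex were not used in the choice and were tested.

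The cells were long-term haematopoietic stem cells (LT-HSCs) sorted from mouse bone marrow as lineage-negative, CD117+, Sca1+, CD150 high and CD48 low cells. All were split by a Vwf-GFP reporter, where Vwf encodes von Willebrand factor and its reporter marks stem cells biased toward megakaryocytes. The groups were Vwf+ cells from Dnmt3a+/- mice, Vwf+ cells from wild-type (WT) mice, Vwf- cells from Dnmt3a+/- mice and Vwf- cells from WT mice, each with 2 libraries. Mice were 10 to 12 months old, and each library was a pool of 3 to 4 mice, so single mice were not resolved. In each group, replicate 1 was a male and replicate 2 a female pool. Dnmt3a encodes a de novo DNA methyltransferase. The labels used here describe neither the Dnmt3a allele nor the reporter construct.

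A cilium or sperm tail is built around the axoneme, a ring of microtubule doublets that bends when dynein arms on one doublet walk along the next. Each arm is assembled in the cytoplasm from heavy, intermediate and light chains with the help of assembly factors, and radial spokes and the central pair regulate the stroke. Intraflagellar transport trains carry the parts to the tip, and their subunits also serve vesicle traffic in cells without a cilium. Motile cilia are known from airway, ependyma and oviduct, and axonemal dyneins have no established role in bone marrow stem cells.

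The promoters of the 4 genes whose libraries are shown in full below are printed first. Each is the 250 bases before a RefSeq start on GRCm38.p6, 5′ to 3′ on the gene's strand. They are chr17:30626686-30626935 (+ strand) for Dnah8, chr17:25861516-25861765 (- strand) for Wdr90, chr4:155408940-155409189 (+ strand) for Cfap74 and chr7:4532466-4532715 (- strand) for Dnaaf3. Capitals mark the motif GTTGCC or its reverse complement, the core of the X-box bound by RFX factors, which drive cilium genes.
Dnah8: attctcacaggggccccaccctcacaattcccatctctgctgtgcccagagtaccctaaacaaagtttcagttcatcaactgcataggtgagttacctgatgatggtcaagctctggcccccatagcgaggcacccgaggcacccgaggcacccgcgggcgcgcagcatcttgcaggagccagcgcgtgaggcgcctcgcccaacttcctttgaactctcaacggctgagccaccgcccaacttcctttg
Wdr90: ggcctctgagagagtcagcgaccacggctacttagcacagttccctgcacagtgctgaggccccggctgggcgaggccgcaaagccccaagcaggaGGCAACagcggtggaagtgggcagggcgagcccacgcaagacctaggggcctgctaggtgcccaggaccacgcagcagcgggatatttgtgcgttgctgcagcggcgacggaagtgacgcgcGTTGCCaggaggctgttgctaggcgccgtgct
Cfap74: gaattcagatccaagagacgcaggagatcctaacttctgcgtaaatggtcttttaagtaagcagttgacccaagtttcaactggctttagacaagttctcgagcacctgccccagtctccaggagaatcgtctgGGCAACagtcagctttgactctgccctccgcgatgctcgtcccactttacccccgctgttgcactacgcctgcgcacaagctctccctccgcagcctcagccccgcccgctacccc
Dnaaf3: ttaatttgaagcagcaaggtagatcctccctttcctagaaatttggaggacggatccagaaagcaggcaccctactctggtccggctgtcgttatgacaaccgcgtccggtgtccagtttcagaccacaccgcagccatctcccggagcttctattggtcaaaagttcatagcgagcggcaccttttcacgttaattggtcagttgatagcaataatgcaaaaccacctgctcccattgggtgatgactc
The core motif occurred at 2 places in the Wdr90 window and at 1 in the Cfap74 window, and these letters were not in the Dnah8 or Dnaaf3 windows. The 4 windows held 13, 19, 13 and 11 CpG dinucleotides for Dnah8, Wdr90, Cfap74 and Dnaaf3. Another Cfap74 window, at chr4:155408990-155409239 and not printed, held the core at 2 places and 15 CpG. The Dnah8 window lies inside the GENCODE span of the gene, which starts at 30624354. Over 69 windows of 62 members that matched the RefSeq table, the median was 11 CpG, against 6 over 32851 windows of all genes. All members are protein-coding. The windows of all genes, also used for the X-box below, were not limited to protein-coding genes.

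The full X-box, GTNNCC and GNAAC separated by NNN and searched on both strands, was in 10 of the 69 member windows (14.5%), against 1.8% of all windows. The core alone, which overlaps some of these X-boxes, was in 20 member windows (29.0%), against 10.43% of all. The matches of Spag5, Dnah17 and Ift57, which passed a test below (Ift57 only with replicate number as a block), and of Cfap44 and Dnaaf2, as examples that overlap the core, are shown with up to 8 flanking bases on each side and the 14 matching bases in capitals. They lie at chr11:78301397-78301426 (Spag5, + strand), chr11:118129357-118129386 (Dnah17, - strand), chr16:49699199-49699228 (Ift57, + strand), chr16:44394764-44394793 (Cfap44, + strand) and chr12:69198430-69198454 (Dnaaf2, - strand).
Spag5: ctcactcgGTAACCGGGGGAACggagccac
Dnah17: acgcccttGTCACCAGCGCAACcacagata
Ift57: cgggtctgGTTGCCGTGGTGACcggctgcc
Cfap44: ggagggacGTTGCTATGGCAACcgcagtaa
Dnaaf2: tcccaggcGTTACTATGGCAACaaa
The other members with this motif were Cfap45, Dnaaf5, Ift22, Spag16 and Tekt4. The windows of Dnah17, Cfap45 and Tekt4, like that of Dnah8, lie wholly inside the GENCODE spans of these genes. A match describes letters in a window and was not tested for binding.

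The families spanned more than 3 orders of magnitude of transcript level, compared here on the deposited TPM scale, which is per length and sums to 1e+06 in each library. Mean TPM over the 8 libraries was 10 or more for 25 members, from 1 to 10 for 16 and under 1 for 31, and 61 members had a count in all 8 libraries. The members together took 811 to 1020 TPM per library. The Ift genes took 376 to 490 TPM of it and the Dnah genes 12.4 to 44 TPM.

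**Figure D1:**
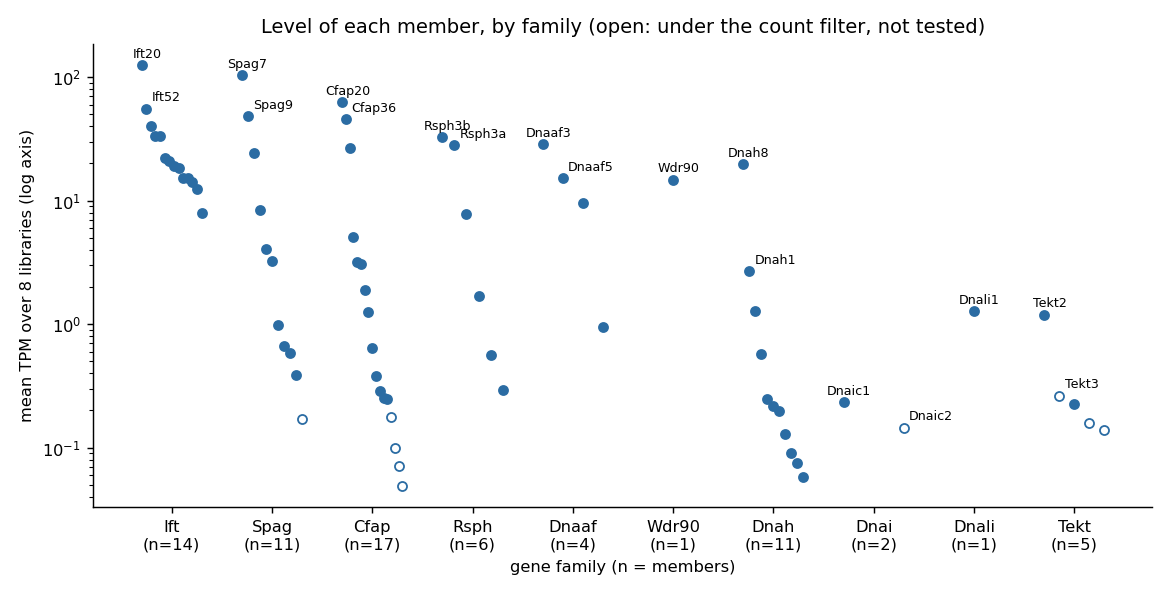
Mean TPM over the 8 libraries (log axis) of each of the 72 members, by family, with open circles for the 9 members that were not tested. The Ift genes sit between 7.88 and 125 TPM, whereas 8 of the 11 Dnah genes sit under 1 TPM and Dnah8 stands apart at 19.7 TPM.

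All 14 Ift genes were tested, and 13 of them had a mean of 10 TPM or more. Ift20, which also works at the Golgi, led with 125 TPM, followed by Ift52 of the IFT-B core with 55.5 TPM and Ift140 of IFT-A with 40.0 TPM, and Ift43 was lowest with 7.88 TPM. These genes were also the steadiest family, with a median coefficient of variation of CPM over the 8 libraries of 12.4%, against 45.9% for the Dnah genes. This measure includes counting error, which weighs more on the low counts of the Dnah genes.

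Among the 11 heavy chains, Dnah8, an outer arm chain of the sperm tail, had 19.7 TPM. Dnah1, an inner arm chain, had 2.69 TPM, and Dnah17, an outer arm chain of the sperm tail, had 1.28 TPM. The outer arm chains Dnah11, Dnah9 and Dnah5 had 0.577, 0.249 and 0.0583 TPM. The inner arm chains Dnah7b, Dnah2, Dnah10, Dnah7a and Dnah6 ran from 0.219 to 0.0756 TPM. Dnah8 alone made up 68.5% and 77.5% of all heavy chain counts in Vwf+ Dnmt3a+/- libraries, 66.0% and 60.9% in Vwf+ WT, 83.7% and 86.4% in Vwf- Dnmt3a+/- and 82.2% and 85.0% in Vwf- WT libraries. Its share was lower in every Vwf+ library than in any Vwf- library.

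The other structural families were led by a few members each. Cfap20, an axoneme and centriole protein, had 62.8 TPM, Cfap36 45.9 TPM and Cfap97 26.7 TPM, whereas 9 of the 17 Cfap genes had under 1 TPM. The radial spoke genes Rsph3b and Rsph3a had 32.7 and 28.2 TPM, and the spoke head gene Rsph9 had 7.86 TPM. Rsph3a and Rsph3b are similar copies, with 54.4% of the 50-base words of Rsph3a exons also in Rsph3b, so reads can be split between them. Likewise 29.4% of the words of Dnah7a were also in Dnah7b. Tekt2, a doublet filament gene, had 1.20 TPM, and Tekt3, Tekt5, Tekt4 and Tekt1 ran from 0.264 to 0.139 TPM. The chain genes Dnali1, Dnaic1 and Dnaic2 had 1.27, 0.234 and 0.145 TPM.

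The assembly factor genes Dnaaf3, Dnaaf5 and Dnaaf2 had 28.7, 15.2 and 9.61 TPM. Dnaaf3 was above every heavy chain, and Dnaaf5 and Dnaaf2 were above every one but Dnah8. Wdr90, a protein of the centriole wall, had 14.8 TPM. The Spag family is joined by name and not by function. Its leading members were Spag7 with 104 TPM, the kinase scaffold gene Spag9 with 48.2 TPM and the mitotic spindle gene Spag5 with 24.5 TPM. The 9 members not tested (Cfap52, Cfap61, Cfap221, Cfap58, Dnaic2, Spag11b, Tekt1, Tekt3 and Tekt4) summed to 0.362 to 1.89 CPM per library.

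Markers of cells that carry motile axonemes were low. The multiciliated cell regulator gene Foxj1 had 19 counts over all libraries and Mcidas had 4. Without the tubulin gene Tubb4b, the 8 other multiciliated markers of the table summed to 3.14 to 12.3 TPM in Dnmt3a+/- libraries and to 5.15 to 9.64 TPM in WT libraries, and none of the 8 was at 0 in all libraries. The 7 spermatid markers summed to 0 to 2.89 TPM per library, and none of them passed the low-count filter. In bulk RNA, fewer cells of a type and less RNA per cell cannot be told apart.

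All 7 markers of LT-HSCs were detected and tested, their summed TPM was 786 to 1130 per library, and Cd48, low by the sort, had 0.0861 to 3.19 CPM. Markers also moved with Vwf status. In Vwf+ cells 3 of these 7 rose (Slamf1, Mecom and Fgd5), with 2 of 4 endothelial (Cdh5 and Kdr), 1 of 4 megakaryocyte (Pf4) and 1 of 3 neutrophil markers (Elane). Over all tested genes, 3.76% were higher. The difference was positive for 5 of 7 LT-HSC, 3 of 4 endothelial, 4 of 4 megakaryocyte and 2 of 3 neutrophil markers. Of the tested B cell, T cell and erythroid markers, 0 passed. Summed TPM was 66.5 to 90.8 in Vwf+ and 54.1 to 72.4 in Vwf- libraries for endothelial, 224 to 385 and 157 to 178 for megakaryocyte, and 35.5 to 125 and 15.9 to 45 for neutrophil markers, and their part in the member differences was not tested. The libraries held 21809278 to 39402418 counts, of which 0.114% to 0.156% fell on the members. Vwf stood at 1030 and 1200 CPM (counts per 1e+06 counts of a library after TMM scaling) in Dnmt3a+/- Vwf+ libraries, 1220 and 1410 CPM in WT Vwf+ libraries, 116 and 104 CPM in Dnmt3a+/- Vwf- libraries and 98.9 and 115 CPM in WT Vwf- libraries. Dnmt3a transcripts, at 175 to 361 CPM, do not separate the alleles and so do not check the genotype labels. The nuclear RNA Malat1 took 1.31% of counts in the male Vwf+ Dnmt3a+/- library and 1.97% in the male Vwf- Dnmt3a+/- library, against 0.974% and 1.00% in the male Vwf+ and Vwf- WT libraries. The female libraries had 0.446% to 0.585%. Rn45s, a ribosomal RNA gene, took 7.31% and 6.08% of counts in the male Vwf+ and Vwf- Dnmt3a+/- libraries. It took 8.96% and 8.07% in the male Vwf+ and Vwf- WT libraries. The female libraries had 8.24% to 11.9%, and in each group the female share of Rn45s was the higher one.

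The first tested comparison set the megakaryocyte-biased Vwf+ fraction against the Vwf- fraction. Averaged over genotype, 2 of the 63 tested members, Dnah8 and Wdr90, fell in Vwf+ cells and 0 rose. Over all tested genes, 5.44% passed, 3.76% higher and 1.68% lower. The members' share of 3.17%, all of it lower, was under the 5.44% in either direction and over the 1.68% lower. It rests on 2 genes, so no difference from the background is read from it. The median member difference was 0.05 on the log2 scale, and 36 of 63 were positive, against 49% of all genes.

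Dnah8 (chromosome 17, 30624354 to 30877365, + strand) stood at 98.5 and 112 CPM in Dnmt3a+/- Vwf+ libraries and at 62.2 and 58.7 CPM in WT Vwf+ libraries. It stood at 249 and 202 CPM in Dnmt3a+/- Vwf- libraries and at 142 and 160 CPM in WT Vwf- libraries. All 4 Vwf+ libraries lay below all 4 Vwf- libraries. The log2 difference was -1.21 ± 0.11 (standard error, SE), which is 2.31-fold lower in Vwf+ cells, with an adjusted p of 0.000233 in edgeR's quasi-likelihood test with Benjamini-Hochberg adjustment over all tested genes. The overlapping gene 1700097N02Rik lies on the opposite strand with 207 shared exonic bases. It had 0 to 1.59 CPM in Vwf+ and 1.95 to 4.25 CPM in Vwf- libraries, far below Dnah8. Another opposite-strand gene, AC165951.2, shares 443 exonic bases (1.7%) with Dnah8. It is not among the counted genes, so its level was not checked.

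Wdr90 (chromosome 17, 25844771 to 25861501, - strand) had 39.1 and 43.1 CPM in Dnmt3a+/- Vwf+ libraries, 32.2 and 21.8 CPM in WT Vwf+ libraries, 65.0 and 56.5 CPM in Dnmt3a+/- Vwf- libraries and 39.8 and 41.1 CPM in WT Vwf- libraries. Within each genotype both Vwf+ libraries lay below both Vwf- libraries, but the Dnmt3a+/- Vwf+ libraries overlapped the WT Vwf- libraries. The log2 difference was -0.57 ± 0.14 (SE), or 1.49-fold lower in Vwf+ cells (adjusted p = 0.043, edgeR). The neighbour Rhot2, on the same strand with 81 shared exonic bases (0.9% of those of Wdr90), had 48.0 to 72.6 CPM in Vwf+ and 59.8 to 73.5 CPM in Vwf- libraries, with a log2 difference of -0.10 ± 0.14 (SE, adjusted p = 0.816). This call was lost when any of 6 libraries was left out, with adjusted p of 0.127 without Vwf+ Dnmt3a+/- replicate 1, 0.0733 without its replicate 2, 0.156 when replicate 2 of Vwf+ WT was left out, 0.0552 when replicate 1 of Vwf- Dnmt3a+/- was left out, and 0.0966 and 0.153 without Vwf- WT replicates 1 and 2.

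**Figure D2:**
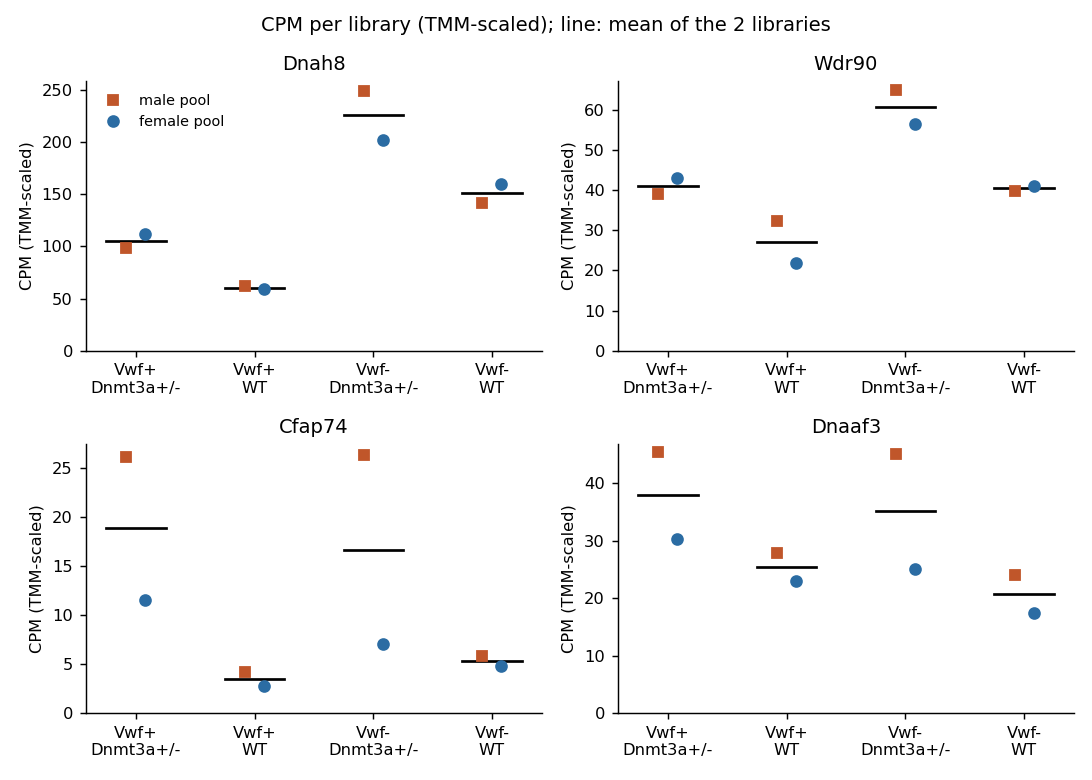
CPM of Dnah8, Wdr90, Cfap74 and Dnaaf3 in each of the 8 libraries, with squares for male and circles for female pools and a line at the mean of the 2 libraries of a group. Dnah8 lies at 58.7 to 112 CPM in Vwf+ and at 142 to 249 CPM in Vwf- libraries, and male pools lie above female pools for Cfap74 and Dnaaf3 in each group.

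Spag5 (chromosome 11, 78301529 to 78322457, + strand), which encodes the spindle protein astrin, had 24.4 and 45.6 CPM in Dnmt3a+/- Vwf+ libraries, 20.6 and 32.2 CPM in WT Vwf+ libraries, 47.9 and 78.6 CPM in Dnmt3a+/- Vwf- libraries and 40.1 and 65.1 CPM in WT Vwf- libraries. Each Vwf+ library was below the Vwf- library of the same genotype and sex. The log2 difference of -0.92 ± 0.26 (SE) did not pass (adjusted p = 0.0707), but it passed with replicate number, which is also sex, as a block (adjusted p = 1.32e-06). All 16 genes of a G2 and M phase list also had a negative difference, with a median of -0.76, and their summed TPM was 391 to 935 in Vwf+ Dnmt3a+/-, 373 to 471 in Vwf+ WT, 518 to 1280 in Vwf- Dnmt3a+/- and 648 to 1260 in Vwf- WT libraries. Of the 16, 0 passed in edgeR without the block (9 at an unadjusted p under 0.05), 1 fell in DESeq2 and 16 fell with the block. The part of cycling cells in the Spag5 difference was not tested.

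With the block, 3 members fell (Dnah8, Spag5 and Wdr90) and 1 rose, against 5.97% of all genes lower and 7.42% higher (13.4% in either direction). The 1 that rose was Ift57 (chromosome 16, 49699233 to 49765126, + strand), an IFT-B subunit. It had 25.7 and 29.5 CPM in Dnmt3a+/- Vwf+ libraries, 26.0 and 32.8 CPM in WT Vwf+ libraries, 20.3 and 25.6 CPM in Dnmt3a+/- Vwf- libraries and 21.4 and 21.3 CPM in WT Vwf- libraries. All Vwf+ libraries lay above all Vwf- libraries, though by little at the nearest pair, and the log2 difference was 0.36 ± 0.15 (SE, adjusted p = 0.223 without the block and 0.0498 with it). The 14 Ift genes ranged from -0.18 to 0.36.

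Among members that did not pass, Tekt2 had 1.75 and 1.59 CPM in Dnmt3a+/- Vwf+ libraries, 1.26 and 0.818 CPM in WT Vwf+ libraries, 0.382 and 0.160 CPM in Dnmt3a+/- Vwf- libraries and 0.602 and 0.210 CPM in WT Vwf- libraries. Its log2 difference was 1.97 ± 0.65 (SE, adjusted p = 0.131). Rsph9 had 4.96 and 3.08 CPM in Dnmt3a+/- Vwf+ libraries, 4.81 and 5.30 CPM in WT Vwf+ libraries, 2.65 and 2.59 CPM in Dnmt3a+/- Vwf- libraries and 2.19 and 2.82 CPM in WT Vwf- libraries, a difference of 0.81 ± 0.29 (adjusted p = 0.166). For both genes the Vwf+ libraries did not overlap the Vwf- libraries. Of the tested members, 4 lay wholly above (Cfap70, Ift57, Rsph9 and Tekt2), against 7.71% of tested genes, and 2 tested members lay wholly below (Cfap20 and Dnah8), against 5.33%. Tekt4, not tested, also lay wholly below.

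**Figure D3:**
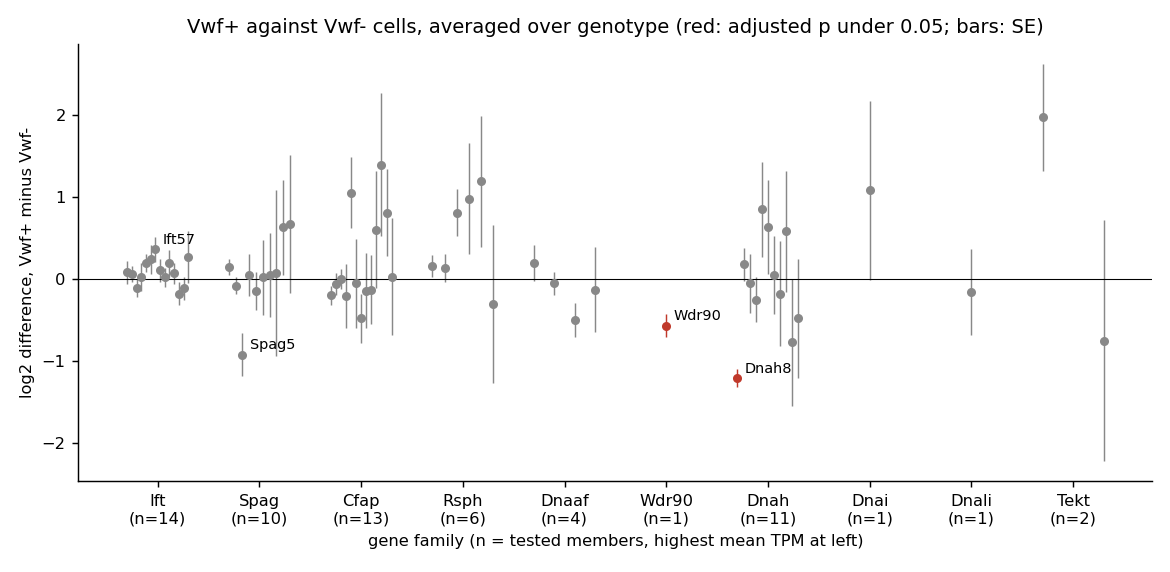
Log2 difference, Vwf+ minus Vwf- cells averaged over genotype, of the 63 tested members by family, each family ordered by mean TPM, with bars for the SE and red for an adjusted p under 0.05. Dnah8 at -1.21 and Wdr90 at -0.57 are in red, and the Ift genes lie between -0.18 and 0.36.

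Within each genotype only Dnah8 passed in edgeR without the block. In Dnmt3a+/- cells it was lower in Vwf+ libraries, with a log2 difference of -1.10 ± 0.16 (SE, adjusted p = 0.00977), where 1.06% of all tested genes passed. In WT cells the difference was -1.32 ± 0.16 (SE, adjusted p = 0.00306), where 1.97% passed. These calls were lost without Vwf+ Dnmt3a+/- replicate 1 (adjusted p = 0.0702) and without Vwf+ WT replicate 2 (adjusted p = 0.0581), and the direction held. With the block, Dnah8 and Spag5 fell in Dnmt3a+/- cells (5.37% of all genes called), and Dnah8, Spag5 and Wdr90 fell in WT cells (8.35%).

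Whether the Vwf difference itself depended on genotype was tested as an interaction. In edgeR, 0 of 63 members and 0% of all tested genes passed, and at an unadjusted p under 0.05 there were 0 members and 159 genes (0.999%). DESeq2 called 0 members as well. The lower level of Dnah8 in Vwf+ cells is therefore not shown to differ between Dnmt3a+/- and WT cells.

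The genotype values follow as a description, because the families were chosen on this contrast. Over the 63 tested members the median log2 difference, Dnmt3a+/- minus WT averaged over Vwf status, was 0.07, and 38 were positive, beside a median of 0.01 and 51.7% positive over all tested genes. The member median was 0.01 without Vwf- Dnmt3a+/- replicate 1, 0.02 without Vwf+ Dnmt3a+/- replicate 1 and 0.11 without replicate 2 of either. The 4 pairs of libraries of the same sex and fraction gave member medians of 0.14 and 0.04 for the Vwf+ male and female pairs and 0.06 and 0.04 for the Vwf- male and female pairs. By family, the median was 0.52 for Dnah (8 of 11 positive), 0.02 for Ift, 0.00 for Cfap and -0.11 for Rsph (1 of 6 positive). Most Dnah genes had low counts, and their differences had wide errors, from 0.11 (SE) for Dnah8 to 0.79 for Dnah6.

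Cfap74 encodes a protein of the central apparatus and differed most among the members with a mean above 1 CPM. Tekt5, at 0 to 0.671 CPM per library, had a larger fitted log2 difference of 2.39 ± 1.46 (SE). Cfap74 lies at chromosome 4, 155409190 to 155466823 (+ strand). It had 26.1 and 11.6 CPM in Dnmt3a+/- Vwf+ libraries against 4.23 and 2.84 CPM in WT Vwf+ libraries, and 26.3 and 7.06 CPM in Dnmt3a+/- Vwf- libraries against 5.80 and 4.83 CPM in WT Vwf- libraries. All 4 Dnmt3a+/- libraries lay above all 4 WT libraries, with ratios of 6.17 and 4.08 in the Vwf+ male and female pairs and 4.53 and 1.46 in the Vwf- pairs. The log2 difference was 2.03 ± 0.41 (SE), and 1.40 without Vwf- Dnmt3a+/- replicate 1. Both male Dnmt3a+/- libraries, highest in Cfap74, were also the highest in Malat1 share and the lowest in Rn45s share, as given above. The part of RNA composition was not tested.

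The opposite-strand gene 5830444B04Rik shares 453 exonic bases (4.6%) with Cfap74. It had 10.3 and 4.45 CPM in Dnmt3a+/- Vwf+ libraries, 1.30 and 0.172 CPM in WT Vwf+ libraries, 9.53 and 3.90 CPM in Dnmt3a+/- Vwf- libraries and 3.04 and 2.76 CPM in WT Vwf- libraries. It was high and low in the same libraries as Cfap74, and since the strand setting of the counting is not given in the sources used here, reads of this stretch cannot be told apart.

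Dnah8 had Dnmt3a+/- over WT ratios of 1.59 and 1.91 in the Vwf+ male and female pairs and 1.76 and 1.26 in the Vwf- pairs, from the library values given above. In each fraction both Dnmt3a+/- libraries lay above both WT libraries, and the log2 difference was 0.69 ± 0.11 (SE). For Wdr90 the ratios were 1.21 and 1.97 in Vwf+ and 1.63 and 1.37 in Vwf- pairs, with a log2 difference of 0.60 ± 0.14 (SE).

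Dnaaf3 (chromosome 7, 4522933 to 4532453, - strand), needed for preassembly of dynein arms, had 45.5 and 30.4 CPM in Dnmt3a+/- Vwf+ libraries against 27.9 and 23.0 CPM in WT Vwf+ libraries. It had 45.2 and 25.1 CPM in Dnmt3a+/- Vwf- libraries against 24.0 and 17.4 CPM in WT Vwf- libraries. Dnmt3a+/- lay above WT within each fraction, with a log2 difference of 0.67 ± 0.22 (SE), and 0.42 without Vwf- Dnmt3a+/- replicate 1. Its highest levels were in the same male Dnmt3a+/- libraries that were highest in Malat1 and Cfap74. The neighbouring cardiac troponin gene Tnni3, on the same strand, shares 86 exonic bases (3.9%) with Dnaaf3. Tnni3 had 16.1 and 9.01 CPM in Dnmt3a+/- Vwf+ libraries and 11.6 and 10.6 CPM in WT Vwf+ libraries. In Vwf- libraries it had 18.7 and 9.20 CPM in Dnmt3a+/- and 7.47 and 5.58 CPM in WT. The opposite-strand gene Gm15873 shares more, 281 exonic bases (12.6%). It is not among the counted genes, so its level was not checked.

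Of tested members, 3 had all 4 Dnmt3a+/- libraries above all 4 WT libraries (Cfap74, Dnah5 and Spag1), beside 1.24% of all tested genes, and 1 had them all below (Ift52), beside 0.848%. Dnah5, an outer arm chain, had 0.482 and 0.543 CPM in Dnmt3a+/- Vwf+ libraries and 0.501 and 0.766 CPM in Dnmt3a+/- Vwf- libraries, against 0.225 and 0.215 CPM in WT Vwf+ libraries and 0.248 and 0.450 CPM in WT Vwf- libraries. Its counts summed to 103 over the 8 libraries, with a log2 difference of 1.02 ± 0.73 (SE). Spag1, a dynein arm assembly factor, had 6.36 and 7.06 CPM in Dnmt3a+/- Vwf+ libraries and 8.41 and 6.71 CPM in Dnmt3a+/- Vwf- libraries, against 6.03 and 4.00 CPM in WT Vwf+ libraries and 5.59 and 5.37 CPM in WT Vwf- libraries.

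Ift52 had 54.8 and 52.6 CPM in Dnmt3a+/- Vwf+ libraries and 51.7 and 55.0 CPM in Dnmt3a+/- Vwf- libraries, against 62.4 and 59.5 CPM in WT Vwf+ libraries and 56.2 and 56.6 CPM in WT Vwf- libraries. The log2 difference was -0.13, and on the TPM scale the libraries of the genotypes overlapped. Taken within fractions, 7 members had both Dnmt3a+/- libraries above both WT libraries in each fraction (Cfap74, Dnaaf3, Dnah5, Dnah8, Dnah11, Spag1 and Wdr90), beside 3.06% of all tested genes. Dnah11, an outer arm chain, had 4.87 and 3.48 CPM in Dnmt3a+/- Vwf+ libraries and 4.37 and 5.43 CPM in Dnmt3a+/- Vwf- libraries. In WT it had 3.01 and 2.71 CPM in Vwf+ libraries and 3.08 and 3.78 CPM in Vwf- libraries. The opposite-strand gene Cdca7l shares 642 exonic bases (4.4%) with Dnah11 and had 28609 counts in total, against 903 for Dnah11. Reads of this stretch cannot be told apart, as the strand setting is not given. By pair, 11 members were higher in Dnmt3a+/- in 4 of 4 pairs, 15 in 3, 21 in 2, 14 in 1 and 2 in 0 (Ift52 and Spag7). Pairs were not counted in this way over all tested genes. These counts therefore have no background beside them and are not read as a result about the members.

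**Figure D4:**
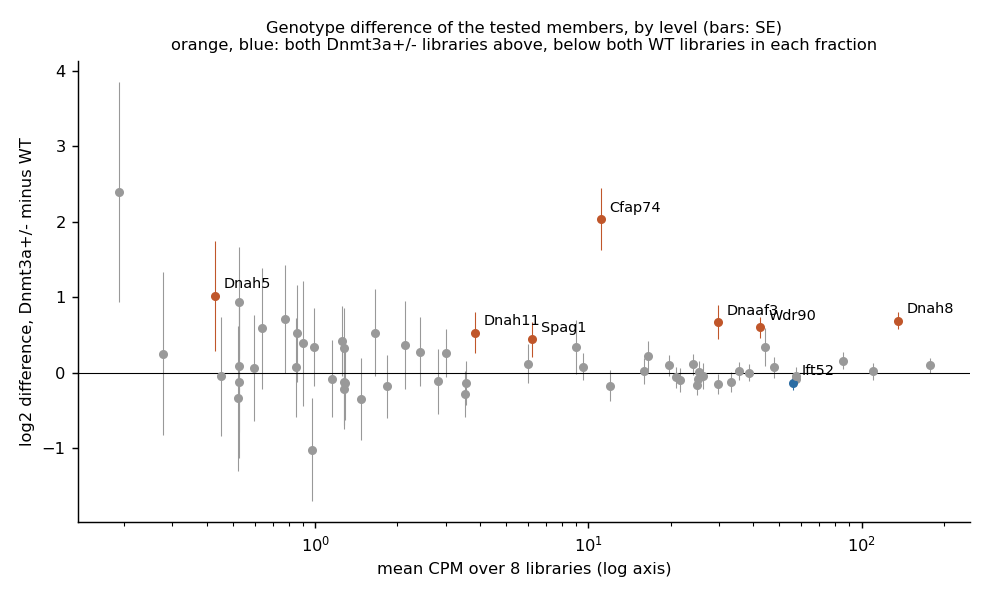
Log2 difference, Dnmt3a+/- minus WT averaged over Vwf status, of the 63 tested members against mean CPM over the 8 libraries (log axis), with bars for the SE. Orange marks the 7 members with both Dnmt3a+/- libraries above both WT libraries in each fraction and blue marks Ift52, and Dnaaf3, Wdr90 and Dnah8 lie highest among the members at the right of the axis.

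For male against female pools, a term for sex was added to the model of 4 groups. Sex cannot be told apart from replicate number. Of 63 members, 3 rose in male libraries (Cfap74, Dnaaf3 and Dnah17) and 1 fell (Spag5), beside 4.92% of all tested genes higher, 5.62% lower and 10.5% in either direction. The members' share of 6.35% rests on 4 genes, so no difference from that background is read from it. In each group the male library also had the higher share of Malat1 and the lower share of Rn45s, as given above. The part of RNA composition in these differences was not tested.

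Dnah17 (chromosome 11, 118021723 to 118130634, - strand) had 10.2, 11.2, 16.9 and 9.55 CPM in the male Vwf+ Dnmt3a+/-, Vwf+ WT, Vwf- Dnmt3a+/- and Vwf- WT libraries. The female libraries, in the same order, had 6.62, 6.80, 6.55 and 4.26 CPM. All male libraries lay above all female libraries, which held for 5.91% of all tested genes, and the log2 difference was 0.97 ± 0.20 (SE, adjusted p = 0.00352, edgeR). The opposite-strand gene Pgs1 shares 93 exonic bases (0.6% of those of Dnah17) and had more counts, with 23.6 to 29.4 CPM in the male and 24.8 to 29.2 CPM in the female libraries. Its difference was -0.02 ± 0.12 (SE, adjusted p = 0.931). Gm11738, also on the opposite strand, shares 256 exonic bases (1.6%) with Dnah17 and is not among the counted genes.

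Dnaaf3 was higher in the male library of each group, by 0.55 ± 0.12 on the log2 scale (SE, adjusted p = 0.00545). Cfap74 was also higher in the male library of each group, with male over female ratios of 2.25 in Vwf+ Dnmt3a+/-, 1.49 in Vwf+ WT, 3.73 in Vwf- Dnmt3a+/- and 1.20 in Vwf- WT. Its log2 difference was 1.01 ± 0.22 (SE, adjusted p = 0.00669), and 0.70 (adjusted p = 0.0688) without Vwf- Dnmt3a+/- replicate 1. The overlapping genes that were counted rose as well, 5830444B04Rik by 1.17 ± 0.34 (adjusted p = 0.031) and Tnni3 by 0.61 ± 0.18 (adjusted p = 0.039).

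Spag5 went the other way, with the male library lower than the female one in each group. The log2 difference was -0.74 ± 0.10 (SE, adjusted p = 0.000119). All 16 G2 and M phase genes passed as lower in male libraries, with a median of -0.96, beside 5.62% lower over all tested genes. The part of cycling cells in the Spag5 difference between sexes was not tested. The Ift genes ranged from -0.22 to 0.25, and none passed.

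**Figure D5:**
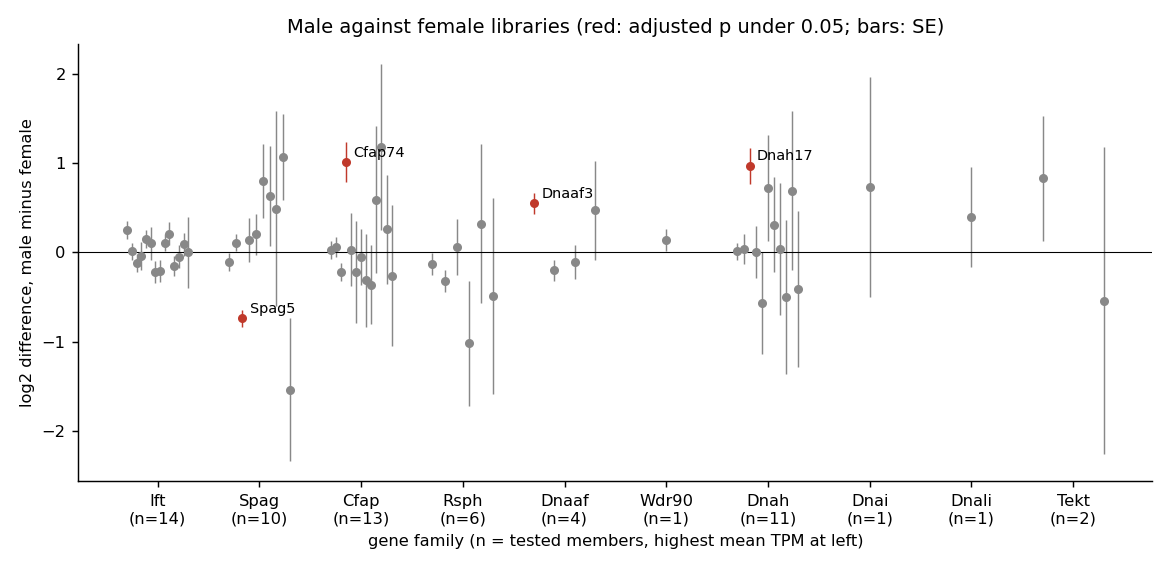
Log2 difference, male minus female libraries, of the 63 tested members by family, each family ordered by mean TPM, with bars for the SE and red for an adjusted p under 0.05. Cfap74 at 1.01, Dnah17 at 0.97 and Dnaaf3 at 0.55 lie above 0 and Spag5 lies at -0.74.

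Other cilium genes were read from 12 lists that share no gene with the families, with 176 of 202 genes tested. In the Vwf comparison 5 rose and 5 fell (13 and 14 with the block), beside the background of 5.44% (13.4% with the block), and the median was 0.03. The ciliary motor gene Kif17, a kinesin-2, was the only one of 9 cytoplasmic dynein 2 and kinesin-2 genes to pass. It had 11.6 and 8.43 CPM in Dnmt3a+/- Vwf+ libraries, 7.87 and 5.64 CPM in WT Vwf+ libraries, 27.1 and 19.0 CPM in Dnmt3a+/- Vwf- libraries and 18.5 and 17.1 CPM in WT Vwf- libraries. Like Dnah8, it was lower in every Vwf+ library than in any Vwf- library, with a log2 difference of -1.30 ± 0.20 (SE, adjusted p = 0.00365).

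Of 16 Hedgehog signalling genes, the partner genes Evc and Evc2, which act at the base of the cilium, had log2 differences of 1.10 ± 0.12 and 1.09 ± 0.10 (SE, adjusted p = 0.000831 and 0.000277) and so rose. Evc2 had 124 and 127 CPM in Dnmt3a+/- Vwf+ libraries, 124 and 111 CPM in WT Vwf+ libraries, 62.9 and 56.2 CPM in Dnmt3a+/- Vwf- libraries and 59.1 and 50.4 CPM in WT Vwf- libraries, with no overlap between the fractions. Of 25 transition zone genes 1 rose, Cc2d2a by 0.55 ± 0.11 (SE, adjusted p = 0.0194), and of 13 ciliary transcription factor genes 1 rose, Glis3 by 1.25 ± 0.25 (adjusted p = 0.0146). Of 24 centriole and distal appendage genes, 1 rose and 4 fell, beside 3.76% higher and 1.68% lower over all tested genes. Ninl, a ninein-like centrosome gene, rose by 1.06 ± 0.18 (adjusted p = 0.00627). The centriole duplication genes Stil and Sass6 fell by 1.14 and 0.68, the centriolar kinesin gene Kif24 by 0.84 and the appendage gene Cep83 by 0.38. The G2 and M phase genes also had negative differences, as given above, and the part of cycling cells here was not tested.

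Between sexes, 3 of the 176 genes rose in male libraries and 5 fell, beside 4.92% higher and 5.62% lower over all tested genes. The axoneme gene Mns1 fell by 0.81 (adjusted p = 0.000977) and the assembly gene Ttc12 rose by 0.78 (adjusted p = 0.0409). Of 13 BBSome and chaperonin genes, Bbip1 rose by 0.48 and Bbs10 by 0.59. Also lower in male libraries were 1 ciliary transcription factor gene, 1 outer dynein arm docking and adaptor gene and 2 centriole and distal appendage genes.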

How the data were processed

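Raw counts per gene and TPM values of 8 libraries were deposited by the authors. Counts are whole numbers, and deposited TPM values sum to 1e+06 per library. Trim Galore, STAR, featureCounts, DESeq2 and the build mm10 appear in the submitters' processing notes. Tool versions, the annotation, the strand setting and the handling of reads with several matches are not given in the sources used here.

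Tests used edgeR 4.0.16 under R 4.3.3 (filterByExpr with a minimum count of 10, TMM factors 0.958 to 1.06, quasi-likelihood F-test on 4 group means, 4 residual degrees of freedom, Benjamini-Hochberg adjustment over 15917 genes, threshold 0.05). Sex was tested with sex added to the group means. Alternatives were other size factors, no filter, DESeq2 1.42.0, each library left out and replicate number as a block. The scripts were tested on simulated counts. CPM are TMM-scaled, and SE is the size of the log2 difference over the square root of F. P-values measure the spread between pools. In fits without the block or a sex term, this spread includes the difference between the male and female pool of a group.

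Replicate number marks sex in every group, and differences between replicates 1 and 2 correlated across 15917 genes in all 6 pairs of groups (r of 0.13 to 0.30). The numbers were therefore also used as a block, whereas the main fits left them out. These correlations cannot tell a difference between sexes shared by the groups from another pairing of libraries. Named were members that passed a tested comparison, members whose genotypes did not overlap, the 3 of highest TPM per family, all Dnah genes, and genes of the other cilium lists that passed. Some of these list genes that fell between sexes are given only as counts. Tekt2, Rsph9, Cfap70, Cfap20, Tekt4 and others named outside this rule were chosen after their values were seen. Members and lists were chosen with earlier results of these data known. Coordinates are GENCODE M21 on GRCm38, and promoters are RefSeq. Of 72 members, 30 share exonic bases with another annotated gene.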

Additional observations from a re-analysis of the deposited data

How the results depend on the processing

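No member named for passing a test, or for genotypes that did not overlap, changed direction in that comparison under the alternatives run. Members with differences near 0 could: with the replicate block, the Vwf difference of Dnah17 was 0.04 in place of -0.05, and that of Cfap44 was -0.05 in place of 0.03. Dnah8 was lower in Vwf+ cells under every alternative of the comparison averaged over genotype. There, 2 members passed, against 4 in DESeq2 (Dnah8, Spag5 and Wdr90 lower, Tekt2 higher), 4 with the replicate block and 1 to 3 with a library left out (1 without Vwf+ Dnmt3a+/- replicate 1, Vwf+ WT replicate 2 or Vwf- WT replicate 2). In WT, 1 passed, against 2 with no filter, 3 with the replicate block and 0 to 1 with a library left out. In Dnmt3a+/-, 1 passed, against 2 with no filter, 2 with the replicate block and 0 to 1 with a library left out. Between sexes, 4 passed, against 3 to 6 with a library left out. The interaction had 0 under every setting. The median genotype difference of 0.07 was 0.02 with the replicate block and 0.01 to 0.11 with a library left out, lowest without Vwf- Dnmt3a+/- replicate 1. The cause of these shifts was not tested. The block changed no other call of a member in the tested comparisons. Precision followed the counts: the SE of the Vwf difference was 0.11 for Dnah8, with 34191 counts, and 0.77 for Dnah6, with 105.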
